A study of Mus musculus with 48 samples.

Results

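The genes of 8 receptors for Activin, NODAL and TGF-beta were followed through 4 lists of open chromatin from P19 cells, a mouse embryonic teratoma line of pluripotent character. They comprise the type I receptors *Acvr1b*, *Tgfbr1*, *Acvr1c* and *Acvr1*, the type II receptors *Acvr2a*, *Acvr2b* and *Tgfbr2*, and the co-receptor *Tgfbr3*. Overlapping peaks of the lists were joined into 287329 regions, and a region was counted for a receptor gene where any of its bases lay within 50 kb of a RefSeq transcription start site (TSS) of that gene on mm10. This rule, which uses position alone, found 106 regions, of which 18 were near *Acvr1b*, 6 near *Tgfbr1*, 17 near *Acvr1c*, 21 near *Acvr1*, 10 near *Acvr2a*, 13 near *Acvr2b*, 13 near *Tgfbr2* and 8 near *Tgfbr3*. For 49 of the 106 regions the nearest RefSeq TSS was that of the receptor gene, and the other regions lay closer to a TSS of another gene.

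ATAC-seq, which maps open chromatin by the insertion of adapters with a transposase, was performed on 100000 cells per reaction in 4 signalling states with 2 biological replicates each. In the SB-431542 state the pathway was blocked overnight with 10 µM of this inhibitor. The cells were then washed and kept with the inhibitor for 1 h more. In the 1 h Activin and 8 h Activin states the inhibitor was washed out after the same block and 20 ng/ml Activin was given for the stated time. Untreated cells received neither agent and signalled through the NODAL and GDF3 that they make themselves, and all 4 states were grown in the same serum-containing medium. The time since the wash was thus longer in the 8 h Activin state than in the SB-431542 and 1 h Activin states. No wash is described for untreated cells, and the effect of these steps was not tested. Each state is represented by 1 peak list in which the authors pooled the replicates, so no spread between replicates can be given, no difference between states was tested, and differences are described by their size. The lists held 209212 to 234758 peaks, with a median fold enrichment of 2.15 to 2.34. The local background of each peak was estimated from the deposited scores, and its 1st percentile over all peaks of a list was used as a relative measure of depth. This was 27.0 reads per base under SB-431542, 25.0 after 1 h of Activin, 21.3 after 8 h of Activin and 22.9 without treatment. A peak covered a TSS of all 5 pluripotency genes examined (*Pou5f1*, *Sox2*, *Nanog*, *Sall4* and *Lin28a*) in every list, and of 2 of 4 genes of other cell types (*Myod1* and *Neurog2*, but not *Alb* or *Gfap*).

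Activin and NODAL bind the type II receptors ACVR2A and ACVR2B, which then phosphorylate a type I receptor, ACVR1B or ACVR1C, whereas TGF-beta binds TGFBR2, which phosphorylates TGFBR1. The type I kinases phosphorylate SMAD2 and SMAD3, which enter the nucleus with SMAD4 and bind DNA at short CAGAC motifs, usually beside other factors such as FOXH1. SB-431542 blocks the kinases of ACVR1B, TGFBR1 and ACVR1C, and the receptor genes are therefore components of the pathway whose activity defined the 4 states.

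The following sequences show the regions on which the results turn. The first 5 are the central 300 bases, on the plus strand of GRCm38.p6 (mm10), of the 2 regions with the largest loss of rank, the best-scored region that had no peak after prolonged signalling, the region with the largest gain of rank and a region with peaks only after 8 h of Activin and without treatment, the best-scored of its kind after 8 h. Capitals mark exact matches, on either strand, to CAGAC (SMAD-binding element), TGANTCA (AP-1) or another of the motifs described below, of which the first sequence holds none.
*Acvr2b* -18.6 kb, chr9:119382557-119382856: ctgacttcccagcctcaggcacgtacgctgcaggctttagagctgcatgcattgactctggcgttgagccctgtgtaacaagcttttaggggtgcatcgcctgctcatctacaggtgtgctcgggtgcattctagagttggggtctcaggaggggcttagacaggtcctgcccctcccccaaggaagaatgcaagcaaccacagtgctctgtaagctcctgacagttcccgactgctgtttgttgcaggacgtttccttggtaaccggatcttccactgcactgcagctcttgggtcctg
*Acvr1* -22.6 kb, chr2:58589776-58590075: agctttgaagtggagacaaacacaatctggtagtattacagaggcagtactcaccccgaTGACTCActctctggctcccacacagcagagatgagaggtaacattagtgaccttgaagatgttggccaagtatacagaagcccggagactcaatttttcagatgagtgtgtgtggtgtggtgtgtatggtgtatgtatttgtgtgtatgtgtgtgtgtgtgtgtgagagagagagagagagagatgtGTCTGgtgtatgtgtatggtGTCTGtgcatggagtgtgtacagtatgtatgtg
*Tgfbr2* -48.0 kb, chr9:116223437-116223736: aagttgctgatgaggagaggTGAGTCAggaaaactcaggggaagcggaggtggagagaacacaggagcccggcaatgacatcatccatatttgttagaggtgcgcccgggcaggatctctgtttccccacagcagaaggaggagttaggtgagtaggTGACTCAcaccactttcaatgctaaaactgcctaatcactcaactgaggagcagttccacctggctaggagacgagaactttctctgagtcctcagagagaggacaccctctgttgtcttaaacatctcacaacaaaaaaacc
*Acvr1c* +34.3 kb, chr2:58289800-58290099: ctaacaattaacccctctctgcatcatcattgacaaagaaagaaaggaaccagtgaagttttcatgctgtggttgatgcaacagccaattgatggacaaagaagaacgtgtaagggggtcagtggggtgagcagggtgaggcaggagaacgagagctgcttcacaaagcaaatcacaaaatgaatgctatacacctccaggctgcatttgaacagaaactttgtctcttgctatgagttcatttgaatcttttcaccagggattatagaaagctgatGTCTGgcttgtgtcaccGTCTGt
*Tgfbr2* -20.2 kb, chr9:116195583-116195882: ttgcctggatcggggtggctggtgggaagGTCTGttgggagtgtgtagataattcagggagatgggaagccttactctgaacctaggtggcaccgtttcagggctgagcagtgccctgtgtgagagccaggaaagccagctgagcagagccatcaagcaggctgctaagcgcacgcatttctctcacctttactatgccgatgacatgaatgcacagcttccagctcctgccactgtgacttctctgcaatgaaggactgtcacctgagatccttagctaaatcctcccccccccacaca

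A pair of promoters is shown because they are the extremes in CpG content among those of the receptor genes. They are the 250 bases before the TSS from RefSeq (GRCm38.p6), on the strand of the gene, with every CpG in capitals.
*Acvr2a*, plus strand, chr2:48813859-48814108: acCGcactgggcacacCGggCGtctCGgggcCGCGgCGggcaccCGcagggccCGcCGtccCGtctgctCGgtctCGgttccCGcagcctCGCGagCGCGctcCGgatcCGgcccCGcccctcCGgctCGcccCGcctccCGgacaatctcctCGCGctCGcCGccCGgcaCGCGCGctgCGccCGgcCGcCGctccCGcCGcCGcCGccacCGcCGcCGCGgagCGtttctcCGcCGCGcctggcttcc
*Acvr1c* internal TSS, minus strand, chr2:58324808-58325057: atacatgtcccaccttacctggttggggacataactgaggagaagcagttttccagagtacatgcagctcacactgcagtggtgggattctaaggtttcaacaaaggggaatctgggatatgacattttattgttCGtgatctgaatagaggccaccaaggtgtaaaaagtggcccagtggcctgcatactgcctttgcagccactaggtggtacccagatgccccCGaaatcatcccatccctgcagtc

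The main promoter of every receptor gene was open in all 4 states. Fold enrichment, the authors' ratio of the mean pileup over a peak to the local background, was 3.62 to 13.4% higher in the highest than in the lowest state at the main promoters of 7 of the 8 genes. At *Tgfbr3* it was 46.7% higher. Counting a second promoter of *Acvr1c* and a weak region beside a predicted TSS of *Acvr1*, 10 regions lay over or within 1000 bp upstream of a receptor TSS, and all 10 had a peak in every list. Open promoters were not particular to these genes. A region with a peak in every list also lay over a TSS of each SMAD, co-receptor and ligand gene counted below. The same was true of *Bmpr1a* (fold enrichment 3.66 to 4.37), *Bmpr1b* (6.42 to 8.33), *Bmpr2* (3.71 to 3.81), *Acvrl1* (1.83 to 2.05) and *Amhr2* (1.84 to 2.26). No region lay over a TSS of *Eng*. No list had a peak over the internal TSS of *Tgfbr1* (chr4, position 47386216) or over 2 of the 3 TSSs of *Acvr1* (chr2, positions 58538774 and 58561410).

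**Figure D1:**
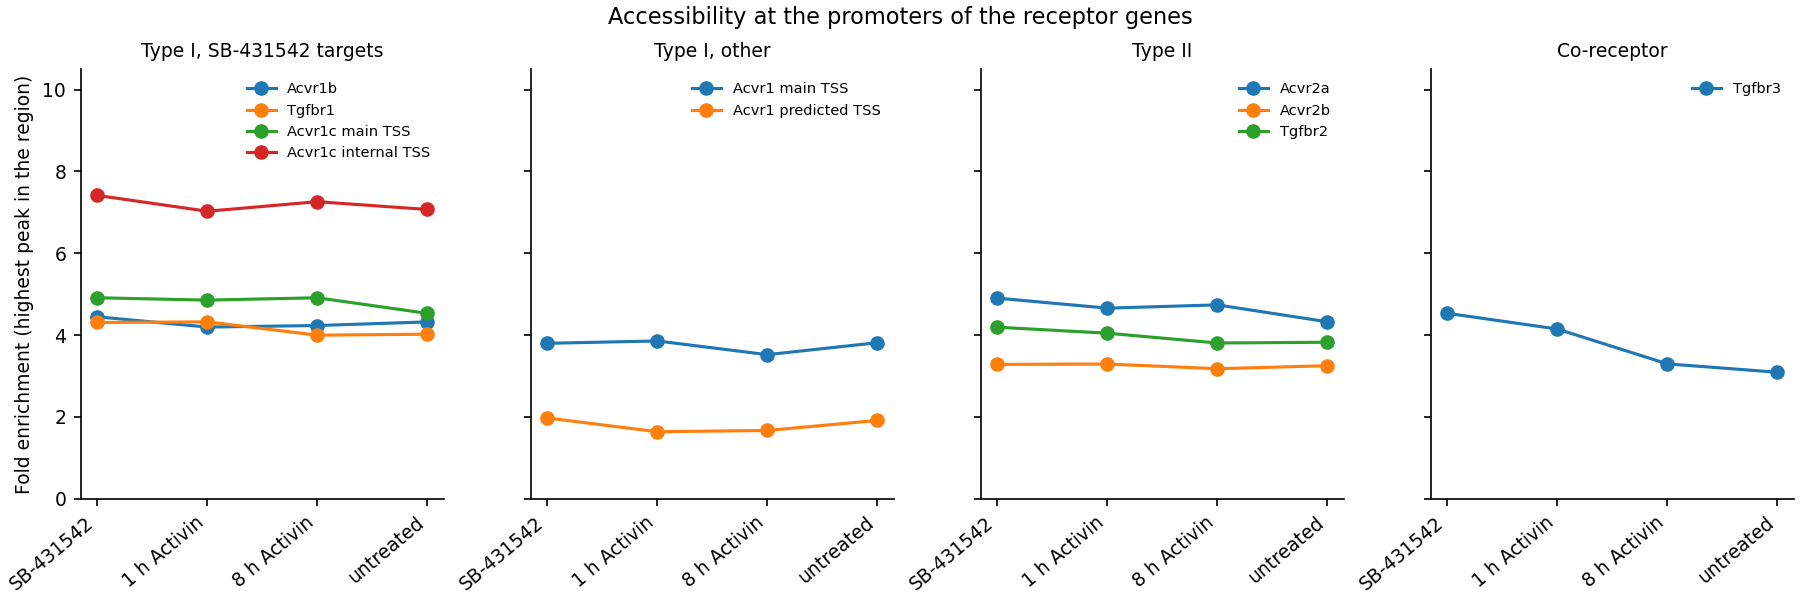
Fold enrichment (y axis, a ratio) of the highest peak over each receptor promoter in the 4 states (x axis), 1 line per promoter, grouped by receptor class, with 1 value per state and no error. The lines of *Acvr1b*, *Tgfbr1*, *Acvr1c*, *Acvr2a*, *Acvr2b*, *Tgfbr2* and the main *Acvr1* promoter are nearly level, and that of *Tgfbr3* is lower after 8 h of Activin (3.29) and without treatment (3.09) than under SB-431542 (4.53).

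Among the targets of SB-431542, *Acvr1b*, which encodes the Activin and NODAL receptor ALK4, had a promoter fold enrichment of 4.45 under SB-431542, 4.19 after 1 h, 4.23 after 8 h and 4.32 without treatment (chr15:101173462-101176183). *Tgfbr1*, which encodes the TGF-beta receptor ALK5, had 4.31 under SB-431542, 4.32 after 1 h, 4.00 after 8 h and 4.02 without treatment (chr4:47351444-47353996). *Acvr1c*, which encodes the NODAL receptor ALK7, had 4.91 under SB-431542, 4.85 after 1 h, 4.91 after 8 h and 4.53 without treatment at its main promoter (chr2:58356891-58358601). The internal promoter of *Acvr1c* (chr2:58324168-58325059) was the most enriched of all receptor promoters in every list, with 7.41 under SB-431542, 7.03 after 1 h, 7.26 after 8 h and 7.07 without treatment. Its percentile among all regions with a peak in every list was 98.5 to 98.8, and its sequence holds 2 CpGs in the 300 bases around the TSS, whereas the main promoter of *Acvr1c* holds 39.

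*Acvr1*, a type I receptor mainly for BMPs (ALK2) that SB-431542 hardly inhibits, had a promoter fold enrichment of 3.80 under SB-431542, 3.85 after 1 h, 3.52 after 8 h and 3.81 without treatment (chr2:58566238-58569601). The weak region upstream of a predicted TSS within *Acvr1* (chr2:58538967-58540483) had 1.97 under SB-431542, 1.63 after 1 h, 1.67 after 8 h and 1.91 without treatment. It covered 372 bp under SB-431542, and 1149, 1056 and 1504 bp after 1 h, 8 h and without treatment.

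The type II receptor genes included both the most and the least level of the 7 main promoters other than that of *Tgfbr3*. *Acvr2a*, which encodes an Activin receptor, had a promoter fold enrichment of 4.90 under SB-431542, 4.66 after 1 h, 4.74 after 8 h and 4.32 without treatment (chr2:48813259-48815332), the widest spread of the 7 (13.4%). *Acvr2b*, which encodes its close relative, had 3.28 under SB-431542, 3.29 after 1 h, 3.18 after 8 h and 3.25 without treatment (chr9:119401393-119403879), the smallest spread (3.62%). *Tgfbr2*, which encodes the TGF-beta type II receptor, had 4.19 under SB-431542, 4.04 after 1 h, 3.80 after 8 h and 3.82 without treatment (chr9:116174277-116176121).

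*Tgfbr3*, which encodes betaglycan, a co-receptor that presents TGF-beta2 and also binds inhibin, had a promoter fold enrichment of 4.53 under SB-431542, 4.15 after 1 h, 3.29 after 8 h and 3.09 without treatment (chr5:107287240-107290277). Its percentile was 67.6 after 8 h of Activin and 63.5 without treatment, against 84.6 under SB-431542. The peak was wider in the same states, with 2964 bp after 8 h of Activin and 3038 bp without treatment, against 1825 bp under SB-431542. The enrichment above background summed over the covered bases, (fold enrichment - 1) × bp, was 6801 after 8 h of Activin and 6348 without treatment, against 6445 under SB-431542. After 8 h and without treatment the lower mean was thus spread over more bases. After 1 h of Activin the width was the same as under SB-431542 (1825 bp), and the sum was the lowest (5743).

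Away from the promoters the receptor genes differed more between states. Of the 106 regions, 64 had a peak in all 4 lists (60.4%, 95% Wilson interval 50.9 to 69.2%), against 56.6% of all regions and 61.6% of those within 50 kb of a coding TSS. The fold enrichments of these regions were turned into percentiles among the 162505 regions with a peak in every list, list by list, because fold enrichment depends on the depth of a list. A shift is the percentile in a state minus that under SB-431542. Of the 64 regions, 28 stayed within 10 points of SB-431542 in all 3 other states, against 40.7% of all regions with a peak in every list. Intervals here cover counting error only, and neighbouring regions are not independent.

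**Figure D2:**
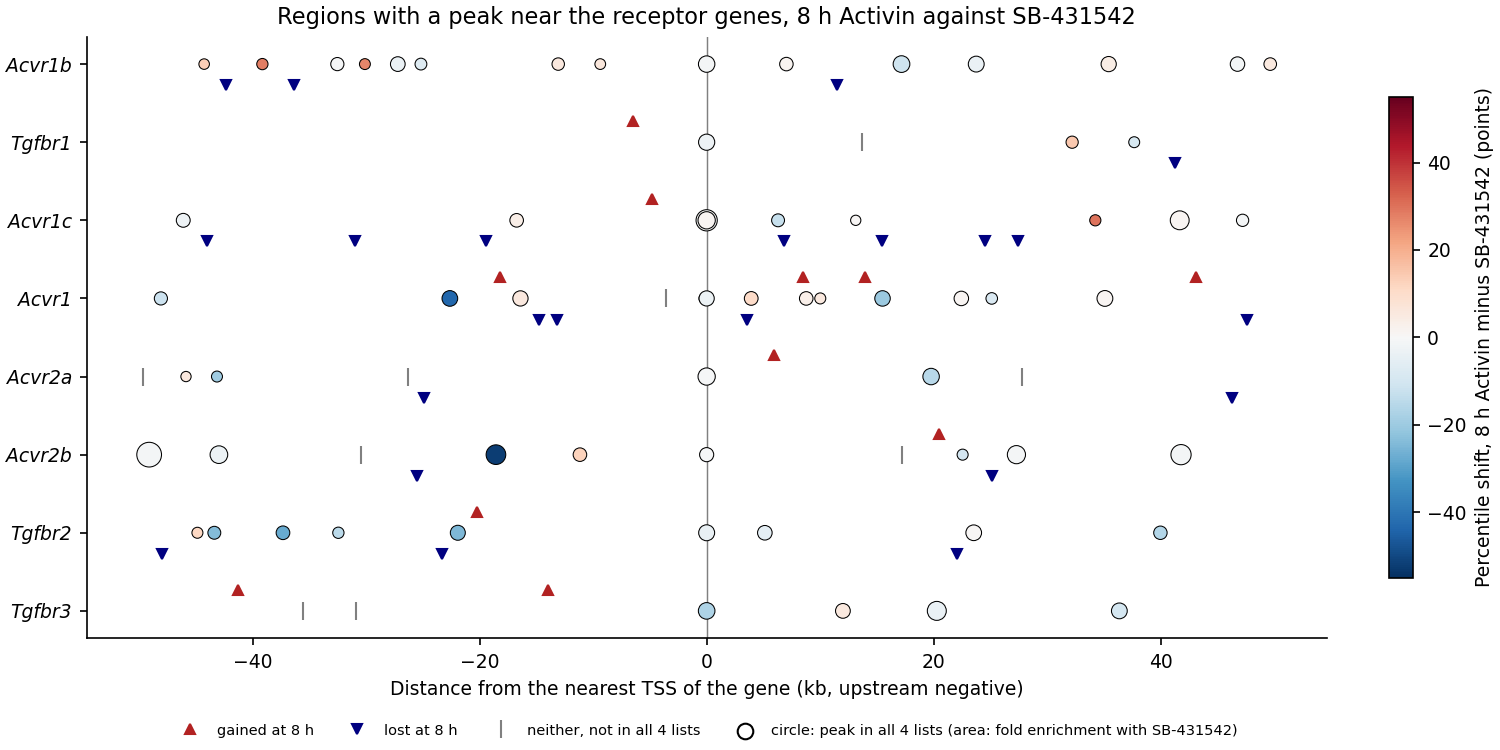
Each row is a receptor gene and each symbol a region at its distance from the nearest TSS of that gene (x axis, kb, upstream negative). Circles have a peak in all 4 lists, with the area giving fold enrichment under SB-431542 and the colour the percentile shift after 8 h of Activin (blue lower, red higher), and triangles mark regions gained (up, 11) or lost (down, 22) after 8 h. The 2 darkest circles lie 18.6 kb upstream of *Acvr2b* and 22.6 kb upstream of *Acvr1*.

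The largest loss of rank after 8 h of Activin was at a region 18.6 kb upstream of *Acvr2b*, within an intron of its neighbour *Xylb*, a xylulokinase gene (chr9:119382399-119383014). Its fold enrichment was 6.35 under SB-431542, 4.30 after 1 h, 2.46 after 8 h and 2.67 without treatment. Its percentile was 44.2 after 8 h of Activin and 51.5 without treatment, against 96.3 under SB-431542, and it was lower already after 1 h of Activin (85.7). The peak was also narrower, with 436 bp after 8 h and 418 bp without treatment, against 616 bp under SB-431542, so that both measures were lower.

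A second region, 22.6 kb upstream of *Acvr1* in an intron of *Upp2*, which encodes uridine phosphorylase 2 (chr2:58589458-58590394), took another course. Its fold enrichment was 4.04 under SB-431542, 5.17 after 1 h, 2.25 after 8 h and 1.80 without treatment. It was therefore highest after acute stimulation, at percentile 92.8, against 78.6 under SB-431542, and it was at percentile 35.0 after 8 h of Activin and 8.69 without treatment, the largest shift of any receptor region in any state (-69.9 points). The central 300 bases shown above hold 1 AP-1 match and 2 SMAD-binding element matches, and 42.0% of them are marked as repeats in the assembly.

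Several regions upstream of *Tgfbr2* were lower after 8 h of Activin. The region at 37.3 kb (chr9:116212700-116215085) had a fold enrichment of 3.07 under SB-431542, 2.70 after 1 h, 2.21 after 8 h and 2.16 without treatment. The region at 43.4 kb (chr9:116218750-116219418) had 2.73 under SB-431542, 2.91 after 1 h, 2.11 after 8 h and 2.08 without treatment. The region at 21.9 kb (chr9:116197291-116197836) had 3.69 under SB-431542, 3.41 after 1 h, 2.57 after 8 h and 3.03 without treatment. All 3 were lower after 8 h and without treatment than in either of the other states. The region at 48.0 kb (chr9:116223380-116223794), whose sequence holds 2 AP-1 matches, had 3.69 under SB-431542 and 3.66 after 1 h and no peak after 8 h or without treatment, and it was the best-scored of all lost regions (-log10 q of 28.2 under SB-431542). In the same upstream stretch, a region at 20.2 kb (chr9:116195583-116195883) had no peak under SB-431542 or after 1 h, and 2.58 after 8 h and 2.55 without treatment. The nearest RefSeq TSS of these upstream regions was that of the predicted gene *Gm4668*, so their assignment to *Tgfbr2* rests on the 50 kb window alone.

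**Figure D3:**
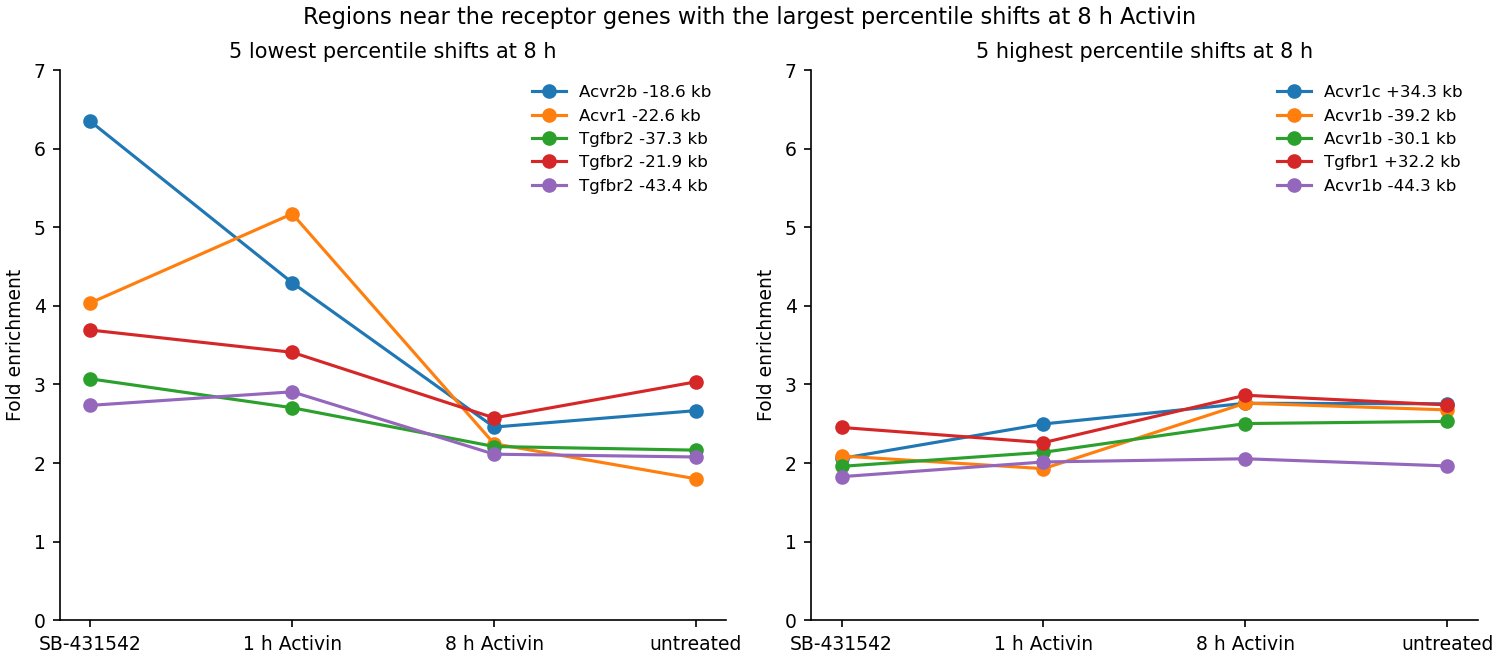
Fold enrichment (y axis) in the 4 states (x axis) of the 5 regions with the lowest (left) and the 5 with the highest (right) percentile shift after 8 h of Activin, named by receptor gene and distance from its TSS, 1 value per state. On the left the *Acvr2b* region is at 2.46 after 8 h, against 6.35 under SB-431542, and on the right no region exceeds 2.86 in any state.

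The regions with the largest gains of rank after 8 h were weaker ones. This is partly set by the measure, because a region already high under SB-431542 has little room to rise in percentile. A region 34.3 kb downstream of the internal *Acvr1c* TSS, in an intron of the gene (chr2:58289346-58290553), had 2.06 under SB-431542, 2.50 after 1 h, 2.76 after 8 h and 2.75 without treatment, and it was more than 10 percentile points above SB-431542 in all 3 states. A pair of regions 39.2 and 30.1 kb upstream of *Acvr1b* lay in the body of *Acvrl1*, the endothelial BMP receptor gene next to it. The first (chr15:101133964-101134920) had 2.09 under SB-431542, 1.93 after 1 h, 2.76 after 8 h and 2.68 without treatment. The second (chr15:101143466-101143955) had 1.96 under SB-431542, 2.14 after 1 h, 2.50 after 8 h and 2.53 without treatment. Both were higher after 8 h and without treatment than in either of the other states. A region 32.2 kb downstream of the internal *Tgfbr1* TSS, in intergenic sequence (chr4:47418425-47421034), had 2.45 under SB-431542, 2.26 after 1 h, 2.86 after 8 h and 2.74 without treatment.

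Other strong distal regions had a peak in all 4 states. The most enriched region near any receptor gene lay 49.1 kb upstream of *Acvr2b* (chr9:119351460-119352453), with 10.1 under SB-431542, 10.3 after 1 h, 7.56 after 8 h and 8.02 without treatment, and it kept a percentile of 98.8 or more in every list. All of its central 300 bases (100%) are marked as repeats in the assembly. An intronic region of *Acvr1c* at 41.7 kb (chr2:58282128-58283115) had 5.86 under SB-431542, 5.41 after 1 h, 6.03 after 8 h and 5.89 without treatment. An intronic region of *Tgfbr3* at 20.3 kb (chr5:107268209-107269346) had 5.92 under SB-431542, 5.42 after 1 h, 5.18 after 8 h and 4.55 without treatment. Both intronic regions stayed within 10 percentile points of SB-431542, as did an intronic region of *Tgfbr2* at 23.5 kb. Intronic regions of *Acvr1b* at 17.2 kb and *Acvr2a* at 19.8 kb lost rank. The *Acvr1b* region had 4.58 under SB-431542, 4.32 after 1 h, 3.62 after 8 h and 3.34 without treatment. The *Acvr2a* region had 4.45, 3.57, 3.34 and 3.09 in the same order. Their shifts were -11.4 and -15.2 points after 8 h, and -15.8 and -20.3 points without treatment. An intronic region of *Acvr1b* at 7.0 kb (chr15:101181100-101181831) alternated instead, with 3.00 under SB-431542, 2.28 after 1 h, 2.99 after 8 h and 2.07 without treatment.

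Counted over all receptor genes, the shares of regions that shifted from SB-431542 in a single state were close to those of the genome, with 1 comparison further away. After 1 h of Activin, 9 of the 64 shared regions were more than 10 points above SB-431542 (14.1%, interval 7.58 to 24.6%, against 11.3% of all shared regions) and 6 were more than 10 points below (9.38%, 4.37 to 18.98%, against 12.1%). After 8 h of Activin, 8 were above (12.5%, 6.47 to 22.8%, against 18.7%) and 16 below (25.0%, 16.0 to 36.8%, against 18.5%). Without treatment, 11 were above (17.2%, 9.88 to 28.2%, against 19.9%) and 19 below (29.7%, 19.9 to 41.8%, against 18.8%). The last is the only one of these 6 shares whose interval leaves out the share of the genome. Of shared regions within 50 kb of any coding TSS, 8.67% were above and 11.9% below after 1 h. After 8 h 14.9% were above and 17.7% below, and without treatment 16.4% and 17.7%. Their shares above after 8 h and without treatment were thus also lower than those of the genome. Again only the receptor share below without treatment had an interval that left this background out. The median shift was 0.76 points after 1 h, -1.13 after 8 h and -1.48 without treatment, against 0.28, -0.17 and 0.08 over all shared regions. Under SB-431542 the shared receptor regions had a median fold enrichment of 3.22, against 2.67 over all shared regions. A percentile of higher rank has less room to rise and more to fall. The shares of the genome were not matched for starting rank, and its effect was not tested. Ranked by estimated pileup in place of fold enrichment, 2 regions were above and 5 below after 1 h, against 8.61% each of all shared regions. With a minimum -log10 q of 5 there were 6 of each among 48 shared regions, against 12.6% above and 14.1% below over all shared regions.

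Of the 64 regions, 13 were more than 10 points below SB-431542 both after 8 h and without treatment, and 6 were above in both. Over all shared regions of the genome, 11.0% were below in both and 11.0% above in both. The receptor share was thus higher than that of the genome for regions below, and slightly lower for regions above. Shifts in both states together were not counted for regions near any coding TSS. This difference was not tested. The 13 were spread over the genes, with 3 near *Acvr1*, 3 near *Tgfbr2*, 2 near *Acvr2a*, 2 near *Acvr2b* and 1 each near *Acvr1b*, *Acvr1c* and *Tgfbr3*. By receptor class, the regions below and above after 8 h were 2 and 5 of 27 for the type I genes targeted by SB-431542, 4 and 1 of 12 for *Acvr1*, 9 and 2 of 21 for the type II genes and 1 and 0 of 4 for *Tgfbr3*, against 18.5% below and 18.7% above over all shared regions. Without treatment they were 8 and 6 for the targeted type I genes, 3 and 3 for *Acvr1*, 7 and 2 for the type II genes and 1 and 0 for *Tgfbr3*, against 18.8% below and 19.9% above. These classes are small, and differences between them were not tested. By position, 9 of the 30 intronic, 5 of the 15 intergenic and 2 of the 10 receptor promoter regions were below after 8 h, as were 0 of the 9 in exons or promoters of other genes. The 2 promoter regions were the *Tgfbr3* promoter and the weak *Acvr1* region.

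**Figure D4:**
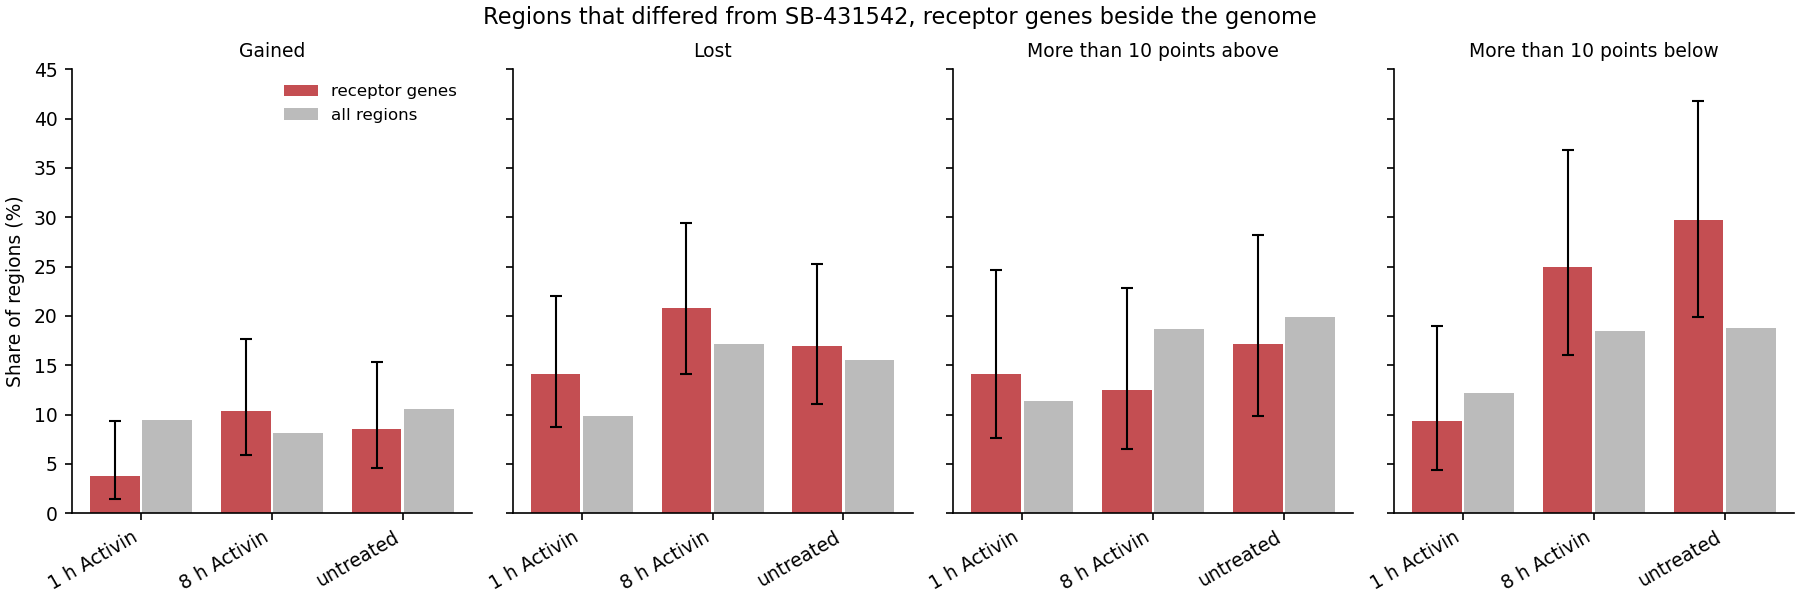
Share of regions (y axis, %) gained, lost, more than 10 percentile points above and more than 10 points below SB-431542 after 1 h of Activin, after 8 h of Activin and without treatment, for the receptor genes (red, with 95% Wilson intervals) and for all regions (grey). In the last panel the red bars stand at 25.0% after 8 h and 29.7% without treatment, against grey bars of 18.5% and 18.8%.

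The presence of peaks was compared with SB-431542 in the same way. A region was called gained with a peak in a state and none under SB-431542, and lost with the reverse. After 1 h of Activin, 4 regions were gained (3.77%, interval 1.48 to 9.30%, against 9.48% of all regions) and 15 lost (14.2%, 8.77 to 22.0%, against 9.86%). After 8 h of Activin, 11 were gained (10.4%, 5.89 to 17.6%, against 8.12%) and 22 lost (20.8%, 14.1 to 29.4%, against 17.1%). Without treatment, 9 were gained (8.49%, 4.53 to 15.4%, against 10.6%) and 18 lost (17.0%, 11.0 to 25.3%, against 15.6%). The share gained after 1 h was the only one with an interval that left out the genome's, and the 41 regions near the targeted type I genes held 0 of the 4. Of all regions within 50 kb of a coding TSS, 6.00% were gained after 1 h, which lies within the interval of the receptor genes.

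Most of these changes in presence were of weak peaks. The 22 regions lost after 8 h had a median -log10 q of 2.55 under SB-431542, and 16 of them were below 5. The 11 gained after 8 h had a median of 2.18 after 8 h, and 9 were below 5. Peaks in the SB-431542 list alone made up 10 regions (9.43%, against 4.91% of all regions), with no -log10 q above 6.01, and the SB-431542 list was also the one with the highest estimated background. Peaks under SB-431542 and after 1 h only made up 6 regions (5.66%, against 6.5%), and peaks after 8 h and without treatment only made up 6 (5.66%, against 2.65%). Of the last kind, the best-scored without treatment (-log10 q of 11.5) was 6.4 kb upstream of *Tgfbr1* (chr4:47346506-47346774), with a fold enrichment of 2.30 after 8 h and 2.74 without treatment. This region lay at a promoter of another gene, *Gm42282*, which also had the nearest RefSeq TSS.

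Width and rank were not tied in a simple way. The receptor regions covered 84291 bp under SB-431542, 74322 bp after 1 h, 76390 bp after 8 h and 77133 bp without treatment, and the whole lists covered 183, 186, 161 and 176 Mb in the same order. The receptor regions thus covered least after 1 h, whereas the whole list covered most after 1 h and least after 8 h. Of the 16 regions below after 8 h, 11 were narrower and 5 wider than under SB-431542, and of the 8 above, 6 were narrower and 2 wider. Of the 40 within 10 points, 25 were narrower and 15 wider. Both receptor promoters below after 8 h were among the wider ones. When regions were ranked by enrichment summed over covered bases, which was chosen after the data had been seen, 14 of the 64 were below and 6 above after 8 h, 19 below and 6 above without treatment, and 12 below and 3 above after 1 h. Over all shared regions this ranking gave 18.2% below and 18.1% above after 8 h. It gave 18.8% and 19.2% without treatment, and 13.1% and 12.6% after 1 h.

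**Figure D5:**
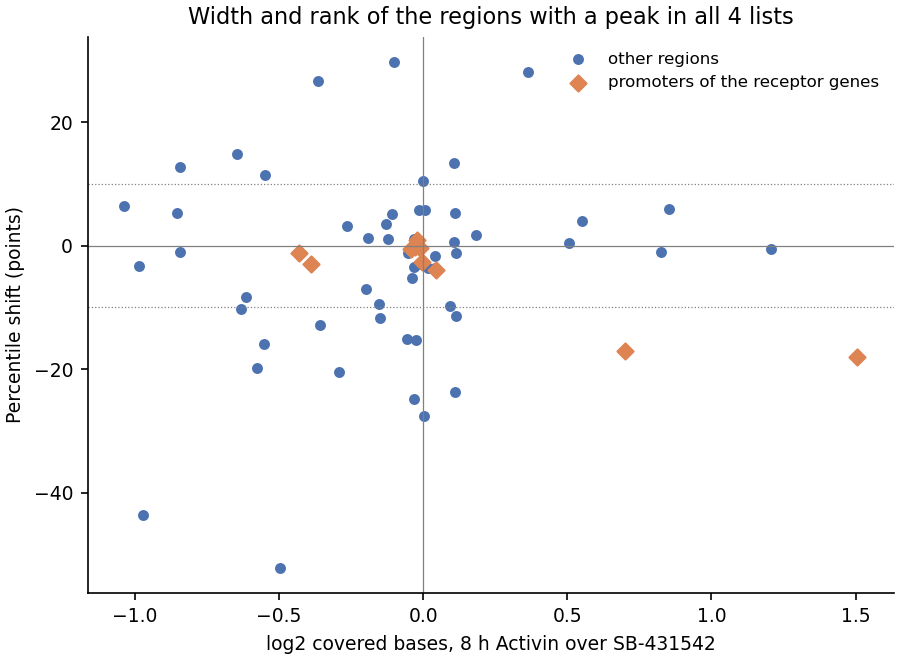
Percentile shift after 8 h of Activin (y axis, points) against the log2 ratio of covered bases after 8 h over SB-431542 (x axis) for the 64 regions present in all 4 lists, with receptor promoters as diamonds and dotted lines at 10 points either side of 0. The 2 diamonds below the lower dotted line are those furthest to the right, the *Tgfbr3* promoter and the weak *Acvr1* region.

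The central 300 bases of all regions were searched on both strands for exact matches to 8 motifs. CAGAC was found in 61 of the 106 regions (57.5%, against 52.8% of all regions), and the palindrome GTCTAGAC in none (0.282%). The FOXH1 motif AATCCACA was found in 2 regions (1.89%, against 1.32%), the FOX motif GTAAACA in 9 (8.49%, against 4.34%), the TCF/LEF motif CTTTGAT in 1 (0.943%, against 5.30%), ATTTGCAT of OCT factors in 2 (1.89%, against 2.73%) and GGAATG of TEAD factors in 19 (17.9%, against 18.5%). TGANTCA of AP-1 was found in 21 (19.8%, against 12.0%). Its matches were in 6 of the 64 regions with a peak in every list (9.38%, against 9.72% of all such regions) and in 15 of the other 42 (35.7%, against 15.1%). It was in 4 of the 11 regions gained after 8 h (36.4%, against 6.997% of all gained regions) and in 8 of the 22 lost after 8 h (36.4%, against 22.4%). Of these gained and lost regions, 9 of the 11 and 16 of the 22 had a -log10 q below 5. The AP-1 motif was in 4 of the 6 regions with peaks only under SB-431542 and after 1 h, against 33.1% of such regions across the genome. It was in 0 of the 6 with peaks only after 8 h and without treatment (6.80% across the genome). A core motif of CTCF, which was searched for after the sequences had been seen, was found in 4 regions (3.77%, against 3.16%). A match shows the letters alone and not a bound factor.

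Of the 8 receptor genes, 7 had promoters in the RefSeq table, 9 promoters in all, and *Tgfbr3* is named only. CAGAC was in 4 of the 9, against 49.6% of 32851 promoters. The CpG count in 300 bases was 54 for *Acvr2a*, 51 for *Acvr1b*, 51 for *Acvr1*, 39 for the main promoter of *Acvr1c*, 34 for that of *Tgfbr1*, 27 for *Acvr2b* and 15 for *Tgfbr2*, all above the median of 7 over all promoters. The internal promoters had 3 (*Tgfbr1*) and 2 (*Acvr1c*). Of these CpG-poor internal promoters, that of *Acvr1c* had the highest fold enrichment of all receptor promoters and that of *Tgfbr1* had no peak.

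Other genes of the pathway were counted in the same way after 8 h. Near 6 other receptors of the family (*Bmpr1a*, *Bmpr1b*, *Bmpr2*, *Acvrl1*, *Amhr2* and *Eng*), 13 of 94 shared regions were more than 10 points below SB-431542 (13.8%) and 13 above. Near 10 co-receptor and ligand genes (*Tdgf1*, *Cfc1*, *Nodal*, *Gdf1*, *Gdf3*, *Inhba*, *Inhbb*, *Tgfb1*, *Tgfb2* and *Tgfb3*), 20 of 99 were below (20.2%) and 16 above. Near 6 SMAD genes (*Smad1*, *Smad2*, *Smad3*, *Smad4*, *Smad5* and *Smad9*), 4 of 31 were below (12.9%) and 5 above. The receptor genes described here stood at 25.0% below and 12.5% above, and all shared regions at 18.5% and 18.7%. Of the 106 regions, 11 also lay in the windows of the other receptors, through the neighbouring *Acvrl1*, and without them 16 of 55 shared regions were below (29.1%) and 5 above (9.09%).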

How the data were processed

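ATAC-seq libraries of P19 cells (48 labelled libraries, 12 per state, from 2 biological replicates) were processed by the authors, according to the study's methods and processing notes, with cutadapt 1.9.1, BWA 0.6.2 against mm10, Picard and BEDTools 2.26.0. The methods describe 8 sequenced samples, and how the labels relate to them is not known. The replicates of a state were merged, and MACS2 2.1.1.20160309 called broad peaks, with no control library. The deposited list of each state gives for each peak a fold enrichment, which is a ratio of pileup to local background, the -log10 p and the -log10 q of the authors' Poisson test, each averaged over the peak, and an integer score, which was not used. These score the enrichment within a list and not a difference between states. No column of another sample was present (0). Read counts per replicate were not analysed here.

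Peaks sharing at least 1 bp were merged, and the highest fold enrichment per list was kept. Regions were annotated by 115576 RefSeq transcripts (GRCm38.p6), with promoters reaching 1000 bp upstream and 100 bp downstream of the TSS. The mean pileup and background were estimated by solving fold enrichment and -log10 p. Percentiles were taken among regions with a peak in every list, shifts over 10 points were counted, and the same counts over all regions served as background. Python 3.11.15, pandas 2.3.3, numpy 2.4.6 and scipy 1.17.1 were used, and the steps were tested on simulated data.

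The receptor genes, gene lists, motifs and rules were chosen with earlier results of these data known. The named regions were all receptor promoters, the most enriched other region of each gene and, per comparison with SB-431542, the 5 largest shifts each way and the 3 best-scored gained and lost regions, from which the text takes the main ones. Alternatives were a -log10 q of at least 5, merging within 200 bp, a 50% overlap, equal list lengths, a 10 kb window, the region centre, curated transcripts, a width-weighted mean, ranking by -log10 q or estimated pileup, a shift of 20 points and, for promoters, division by the median of shared regions. Ranking by summed enrichment and keeping the regions nearest to a receptor TSS were added after the data had been seen.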

Additional observations from a re-analysis of the deposited data

How the results depend on the processing

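No paired analysis was possible because each list pools the replicates of its state, and for the same reason no replicate could be left out. Counts are given here as 1 h, 8 h and untreated, each against SB-431542. With a 10 kb window 23 regions remained near the receptor genes (69.6% with a peak in every list), of which 2, 4 and 3 were gained, 2, 2 and 2 lost, 2, 1 and 3 above and 2, 3 and 3 below. The shares over all regions do not depend on this window. With a minimum -log10 q of 5, which left 73 regions (48 shared), 1 was gained at 1 h. At 8 h 3 were gained, 12 lost, 5 above and 10 below. Of all regions under this setting 3.73% were gained at 1 h, and at 8 h 6.70% gained and 21.5% lost. Of all shared regions, 20.4% were above and 20.9% below at 8 h. Lists of equal length gave 13 of 97 lost at 8 h and 11 in the untreated state, against 22 and 18 of 106. Of all regions with equal lengths, 13.2% were lost at 8 h and 13.4% in the untreated state. Ranking by estimated pileup gave 2, 5 and 7 of 64 above (8.61%, 15.3% and 16.5% of all shared regions). Ranking by -log10 q gave 7 above in the untreated state (18.2% of all shared regions). Counting shifts over 20 points gave 1, 3 and 5 of 64 above and 0, 6 and 10 below. Over all shared regions 2.11%, 7.12% and 7.58% were above and 2.42%, 6.95% and 7.75% below by this cut-off. Among alternatives chosen after the data had been seen, ranking by summed enrichment gave 3 above and 12 below at 1 h and 6 above in the untreated state. Over all shared regions the corresponding shares were 12.6%, 13.1% and 19.2%. Keeping the 49 regions whose nearest TSS is that of a receptor gene gave 6, 7 and 7 lost, 7 and 4 gained at 8 h and untreated, 2, 3 and 4 above and 2, 6 and 7 below. At 8 h and in the untreated state, regions below outnumbered those above in every alternative except the 10 kb window, which gave 3 of each in the untreated state. At 8 h and untreated, the regions below were 3 and 3 of 16 shared regions with the 10 kb window. By the nearest-TSS rule they were 6 and 7 of 31. These shares lay nearer to the 18.5% and 18.8% of all shared regions than those of the main setting. At 1 h the balance turned from more above (60.0% of the shifted regions) to more below by pileup (28.6% above) and by summed enrichment (20.0% above), and was even (50%) with the minimum -log10 q (6 of each), the 10 kb window and the nearest-TSS rule, so no direction at 1 h can be given. The window, the nearest-TSS rule, the minimum -log10 q and the lists of equal length have fewer regions by construction. The cut-off of 20 points can only lower the counts of shifted regions. For the other alternatives the cause was not tested. Median shifts, which stayed within 10 points of the values above, changed sign at 1 h only, to -0.09 by pileup and -0.50 by summed enrichment. Peaks near the calling threshold limit every count of gained and lost regions, and the lists differ in depth.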
